A study of Mus musculus with 12 samples.

Results

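The genes that make, break down, export and receive sphingosine-1-phosphate (S1P) were followed in mammary tumors of PyMT mice treated with doxorubicin (DOX), an antibody against PD-1, or both. These genes were taken by their symbols and are 10 of the 21960 genes listed for each tumor. They are the 5 receptors S1pr1, S1pr2, S1pr3, S1pr4 and S1pr5, the sphingosine kinases Sphk1 and Sphk2, the S1P phosphatase Sgpp1, the S1P lyase Sgpl1 and the S1P exporter Spns2. Each was found once in the deposited values. S1P is a lipid signal that forms inside cells when a kinase adds a phosphate to sphingosine, a breakdown product of membrane sphingolipids. The phosphatase turns it back into sphingosine, the lyase cleaves it for good, and exporters carry it out of the cell, where it binds G protein-coupled receptors on the same or other cells. Its receptors are known for guiding lymphocytes out of lymphoid organs, for holding the endothelial barrier together and for signals of growth and migration in tumors.

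All mice were female C57BL/6 animals that express the polyoma middle T oncoprotein from the MMTV promoter, which drives tumors in the mammary glands. The ages at sampling are not given in the sources used here. Each library came from 1 snap-frozen whole tumor, with 3 tumors in each of 4 groups. Whether tumors of a group share a mouse is not given in the labels. IgG1 tumors received an isotype antibody and anti-PD-1 tumors the antibody clone 4H2, both begun when the first tumor measured 0.6 cm, at 20 mg/kg and then at 10 mg/kg. DOX/IgG1 and DOX/anti-PD-1 tumors received 5 mg/kg doxorubicin weekly for 5 weeks from a diameter of 1 cm, with 10 mg/kg of the same antibodies on the next day. The protocol gives the antibody groups a dose every 6 days until day 18, whereas the sample labels give 5 weeks for every group. DOX and the size at the start, the first antibody dose and the schedule therefore cannot be told apart. Values are in TPM, which set a gene's reads against its length and against all other transcripts of the tumor, so that levels can be compared between genes. The listed genes summed to 609418 to 725506 TPM per tumor. Since TPM do not carry read counts, depth is unknown, and a value listed at 0 can be a failed estimate. DOX/IgG1 replicate 1 stood apart from the other tumors: its median correlation with the rest of its group across genes was 0.930, the lowest of the 12 tumors, and 8104 of its genes were listed at 0, the most of any tumor.

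The S1P genes of PyMT tumors were set in 3 levels by their medians, of which the upper was parted from the next in every tumor. The genes that degrade or export S1P were abundant, the kinases and S1pr2 were moderate, and the remaining receptors were low. Sgpl1 led with a median of 198 TPM over the 12 tumors and a range of 103 to 231 TPM. Sgpp1 followed with a median of 111 TPM and Spns2 with 76.5 TPM. The mean level of Sgpl1 was above that of 97.2% of all listed genes. Neighbors in this upper part of the order were not fully parted, since Sgpl1 was above Sgpp1 in 10 of 12 tumors and Sgpp1 above Spns2 in 9 of 12. Every tumor had more Spns2 than S1pr2, which had a median of 13.8 TPM. S1pr2, Sphk2 (11.8 TPM) and Sphk1 (10.6 TPM) could not be ordered beyond their spread, as S1pr2 exceeded Sphk2 in 8 of 12 tumors and Sphk2 exceeded Sphk1 in 6 of 12. S1pr1 had a median of 6.61 TPM and S1pr3 of 2.60 TPM. The moderate and low levels were not parted by a clear break. Sphk1 exceeded S1pr1 in 11 of 12 tumors, as S1pr1 exceeded S1pr3, and S1pr1 reached 14.4 TPM. S1pr3 exceeded S1pr4 in 12 of 12. S1pr4 and S1pr5 closed the order at medians of 0.55 and 0 TPM. The summed level of the genes that consume S1P, Sgpl1 and Sgpp1, ranged from 182 to 388 TPM per tumor, and that of the kinases from 13.7 to 37.6 TPM.

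**Figure D1:**
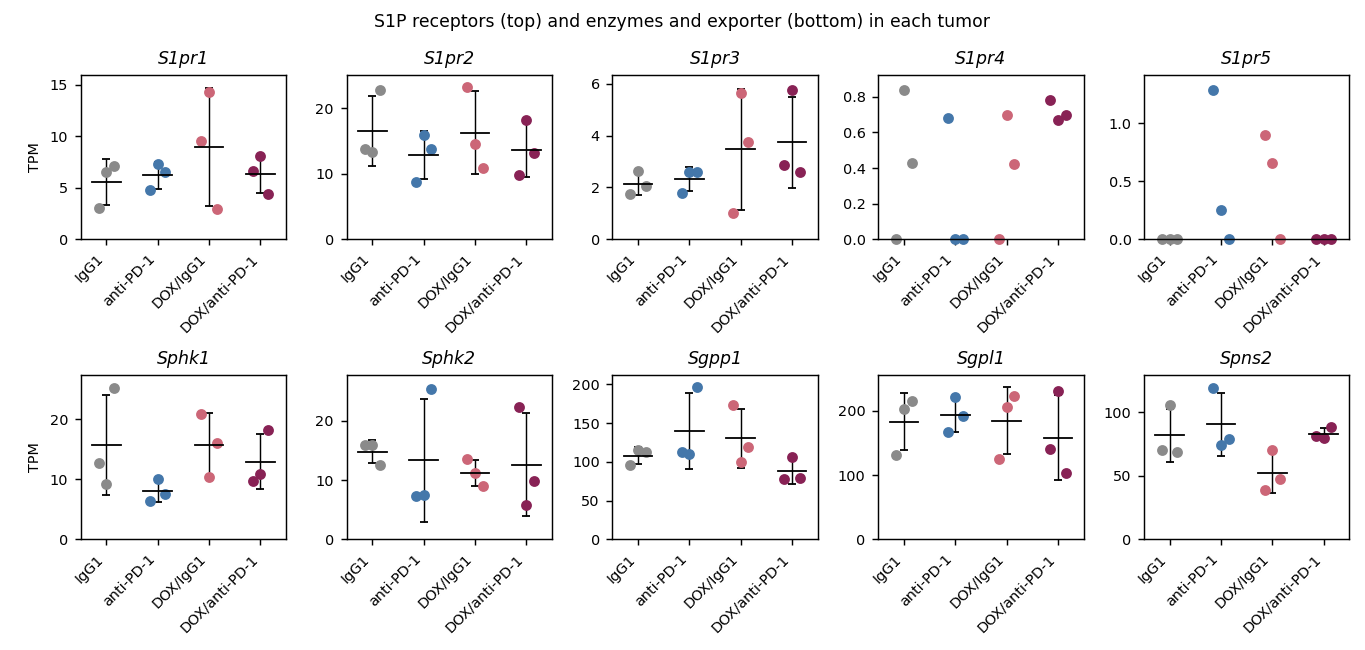
Level of each S1P gene in each tumor in TPM on linear axes that start at 0, by treatment group; points are single tumors and, for the genes above 0 in every tumor, bars are the mean and SD of 3 tumors. The groups overlap in most panels, while the scale differs from below 1 TPM (S1pr4) to 231 TPM (Sgpl1).

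Start regions from RefSeq (build GRCm38.p6, 250 bases before to 50 bases after the start) were matched to 9 of the 10 genes by symbol. A total of 14 regions were matched, as Sphk1 and Sphk2 have several. They are shown for the most abundant gene, Sgpl1 (chr10:61147635-61147934, minus strand), the most abundant receptor, S1pr2 (chr9:20976744-20977043, minus strand), and the least abundant receptors, S1pr4 (chr10:81500088-81500387, minus strand) and S1pr5 (chr9:21248394-21248693, minus strand). The capitals mark each CG, a base pair step that reads the same on both strands and is dense in the start regions of many broadly used genes.
Sgpl1: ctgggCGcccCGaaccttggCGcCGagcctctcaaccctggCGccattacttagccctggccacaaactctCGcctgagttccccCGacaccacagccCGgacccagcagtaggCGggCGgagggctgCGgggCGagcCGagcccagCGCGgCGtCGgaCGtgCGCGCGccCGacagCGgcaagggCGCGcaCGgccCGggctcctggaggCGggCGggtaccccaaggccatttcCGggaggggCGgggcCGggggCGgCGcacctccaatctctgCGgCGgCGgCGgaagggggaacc
S1pr2: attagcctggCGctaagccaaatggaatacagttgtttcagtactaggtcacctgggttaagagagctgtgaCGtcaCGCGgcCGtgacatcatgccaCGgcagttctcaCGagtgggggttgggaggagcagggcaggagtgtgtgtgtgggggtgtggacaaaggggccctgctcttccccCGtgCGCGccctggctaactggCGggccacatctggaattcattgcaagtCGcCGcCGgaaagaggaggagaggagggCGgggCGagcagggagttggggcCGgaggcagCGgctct
S1pr4: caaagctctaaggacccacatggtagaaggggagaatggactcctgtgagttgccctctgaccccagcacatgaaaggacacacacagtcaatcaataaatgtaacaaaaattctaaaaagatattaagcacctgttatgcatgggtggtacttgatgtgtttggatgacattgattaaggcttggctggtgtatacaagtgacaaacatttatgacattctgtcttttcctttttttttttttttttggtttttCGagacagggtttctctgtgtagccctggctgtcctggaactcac
S1pr5: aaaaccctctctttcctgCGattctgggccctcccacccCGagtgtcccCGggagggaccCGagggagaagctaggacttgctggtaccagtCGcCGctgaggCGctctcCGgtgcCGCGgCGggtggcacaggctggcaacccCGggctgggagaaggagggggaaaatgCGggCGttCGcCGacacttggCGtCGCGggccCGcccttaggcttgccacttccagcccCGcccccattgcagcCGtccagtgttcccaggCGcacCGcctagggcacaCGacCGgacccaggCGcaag
Among 32851 start regions of this length the median was 7 CG. Sgpl1 held 38, a count reached or exceeded by 4.95% of them, and Sgpp1 held 36 (6.23%). S1pr2 held 18 (29.7%) and S1pr3 held 14 (36.3%). S1pr4 held 1, which 94.6% of start regions reached. The count did not order the genes by level, since S1pr5, listed at 0 in most tumors, held 27 (15.5%) and Spns2, at a median of 76.5 TPM, held 2 (85.9%) in a RefSeq start region that lies inside the gene as GENCODE places it. Methylation or binding at these regions was not measured.

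S1pr2, a receptor that couples to several G proteins, was the leading receptor transcript in every tumor (ENSMUSG00000043895, chromosome 9, 20962361 to 20976781, minus strand, GRCm38). Its TPM values were 13.7, 13.2 and 22.7 under IgG1, 8.73, 16.0 and 13.8 under anti-PD-1, 23.2, 14.6 and 10.9 under DOX/IgG1, and 9.76, 18.2 and 13.1 under DOX/anti-PD-1. The highest values came from 1 IgG1 and 1 DOX/IgG1 tumor, and all groups overlapped. S1pr2 made up 40.5% to 74.2% of the summed receptor TPM, and the lowest share was that of DOX/IgG1 replicate 2.

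S1pr1, the receptor that lymphocytes and endothelial cells use most (ENSMUSG00000045092, chromosome 3, 115710433 to 115715072, minus strand), came next. It reached 3.01, 6.54 and 7.11 TPM under IgG1, 4.75, 7.31 and 6.57 TPM under anti-PD-1, 9.52, 14.4 and 2.94 TPM under DOX/IgG1, and 6.64, 8.04 and 4.38 TPM under DOX/anti-PD-1. The highest and the lowest of the 12 values both belonged to the DOX/IgG1 group, where the coefficient of variation was 64.1%. In DOX/IgG1 replicate 2 the ratio of S1pr1 to S1pr2 was 0.986, whereas it was at most 0.680 in the other tumors. S1pr3, a receptor of vessel walls and many other tissues (ENSMUSG00000067586, chromosome 13, 51408639 to 51422797, plus strand), ranged from 1.74 to 2.64 TPM in the 6 tumors without DOX. In the 6 tumors with DOX it ranged from 0.99 to 5.77 TPM with a median of 3.30 TPM, against 2.315 TPM without DOX. Values above 5 TPM were seen in 1 tumor of each DOX group, and the lowest value of all was that of DOX/IgG1 replicate 1.

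S1pr4, a receptor of lymphoid and myeloid cells (ENSMUSG00000044199, chromosome 10, 81497747 to 81500132, minus strand), did not reach 1 TPM in any tumor. The listed values were 0, 0.84 and 0.43 TPM under IgG1, 0.68, 0 and 0 TPM under anti-PD-1, 0, 0.70 and 0.42 TPM under DOX/IgG1, and 0.78, 0.67 and 0.70 TPM under DOX/anti-PD-1. DOX/anti-PD-1 was the only group with a value above 0 in each tumor, but its values lay inside the range of the others. The exact permutation test against anti-PD-1 gave p = 0.2 (two-sided, 3 tumors against 3, smallest possible p 0.1). It decides nothing here, since values listed at 0 can be failed estimates and so few tumors allow no smaller p than 0.1. S1pr5, known from NK cells and oligodendrocytes (ENSMUSG00000045087, chromosome 9, 21242912 to 21248443, minus strand), was listed at 0 in all IgG1 and DOX/anti-PD-1 tumors. Its values were 1.29, 0.25 and 0 TPM under anti-PD-1 alone and 0.90, 0.66 and 0 TPM under DOX/IgG1. Neither gene met the minimum for the main limma fit, 1 TPM in at least 3 of 12 tumors, so that this fit tested 8 of the 10 genes.

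**Figure D2:**
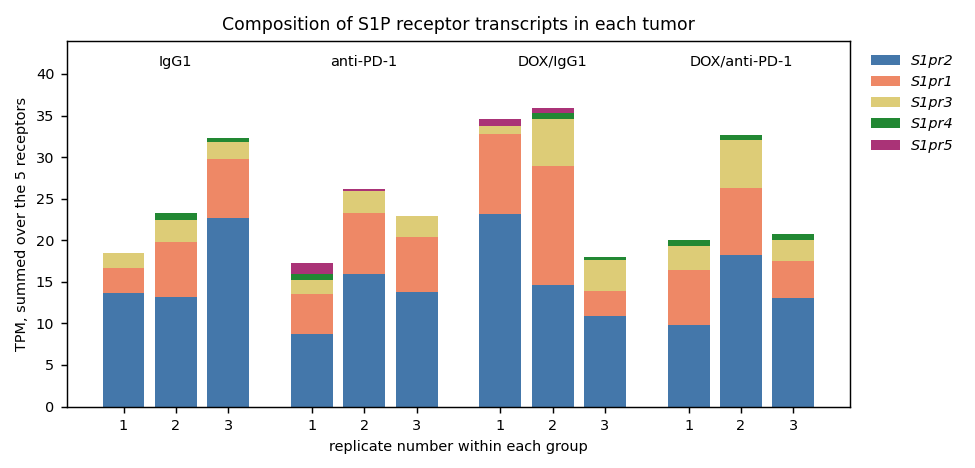
Stacked bars of the TPM of the 5 S1P receptors in each of the 12 tumors, grouped by treatment; the height is the summed receptor level. Blue (S1pr2) is the tallest segment in each bar, nearly matched by S1pr1 in DOX/IgG1 replicate 2, and S1pr4 and S1pr5 together stay below 2 TPM.

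The effect of DOX was taken as the difference between the 6 tumors with and the 6 without it, averaged over both antibodies. None of the 8 genes tested passed an adjusted p below 0.1 together with a log2 fold change beyond 1 in either direction (limma on log2(TPM + 1), Benjamini-Hochberg over 14735 genes). The study set the same limits on another test, DESeq2, and reported more genes past them in each of its pairwise comparisons than limma gave here. The counts given here are therefore not those of the study. These limits were passed by 13 genes in all, or 0.0882%. At an unadjusted p below 0.05 the count was 0 of 8 S1P genes and 1751 of all genes (11.9%). The limma fit gave Spns2 the smallest adjusted p of the 8, 0.480, at a log2 fold change of -0.37. S1pr3 had a log2 fold change of 0.41, Sphk1 of 0.34, S1pr1 of 0.24 and S1pr2 of 0.018. Those of Sphk2, Sgpp1 and Sgpl1 were -0.21, -0.19 and -0.18. With each tumor left out in turn, these values ran from 0.22 to 0.66 for S1pr3, from 0.19 to 0.53 for Sphk1, from 0.027 to 0.52 for S1pr1, from -0.12 to 0.14 for S1pr2, from -0.45 to 0.066 for Sphk2, from -0.30 to -0.055 for Sgpp1, from -0.34 to -0.047 for Sgpl1 and from -0.49 to -0.26 for Spns2. The median of all genes was 0.12, and median of ratios scaling brought it to 0.0073, so that S1pr1, S1pr3 and Sphk1 lay above this shift and the other 5 below it. S1pr2 turned to -0.097 under that scaling. The exact permutation test with relabeling inside each antibody gave p = 0.145 for Spns2 and p = 0.19 for S1pr3 (two-sided, 400 relabelings, smallest possible p 0.005).

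The intervals of these differences give the sizes of change that the 12 tumors could have missed. For Sgpp1 the 95% interval of the fold change ran from 0.656 to 1.17, for Sgpl1 from 0.632 to 1.23 and for Spns2 from 0.581 to 1.03. For S1pr2 the interval of the log2 fold change ran from -0.55 to 0.58. The intervals of S1pr1 (0.699 to 1.99), Sphk1 (0.823 to 1.94) and Sphk2 (0.512 to 1.46) were wider, and that of S1pr3 (0.798 to 2.20) was the only one to pass a doubling. All are on the log2(TPM + 1) scale, which understates the change of low genes such as S1pr3. The log2 fold change of S1pr3 was highest without DOX/IgG1 replicate 1 (0.66, limma adjusted p = 0.311) and lowest without DOX/IgG1 replicate 2 (0.22), and it was 0.26 without DOX/anti-PD-1 replicate 2.

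The count of genes in the whole fit rested on single tumors. It was 301 without DOX/IgG1 replicate 1, 20 without DOX/anti-PD-1 replicate 2, and 7, 5, 3 and 2 without DOX/anti-PD-1 replicate 3, DOX/anti-PD-1 replicate 1, anti-PD-1 replicate 2 and DOX/IgG1 replicate 3. It was 0 without IgG1 replicate 2 or anti-PD-1 replicate 1. The count of S1P genes was 0 in each of these fits.

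**Figure D3:**
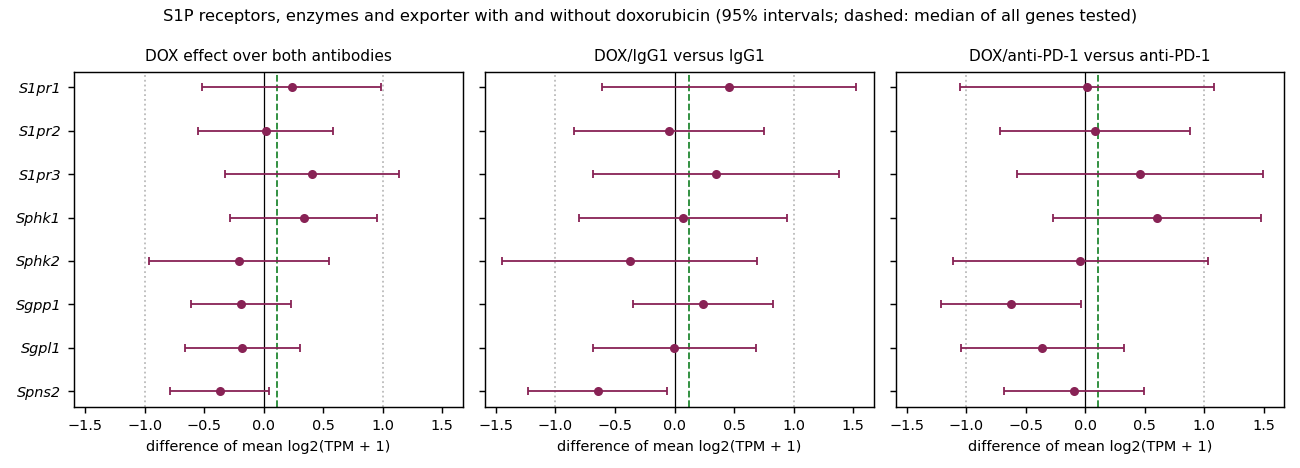
Difference of mean log2(TPM + 1) for the 8 S1P genes tested, with 95% intervals from limma, for DOX over both antibodies (left) and within each antibody (middle, right); dotted lines mark the limits of -1 and 1 and the dashed line the median of all genes. Intervals leave out 0 for Spns2 in the middle panel and for Sgpp1 in the right panel, and neither passed the adjusted limit.

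Spns2, which exports S1P from endothelial and other cells (ENSMUSG00000040447, chromosome 11, 72451638 to 72489904, minus strand), was the gene with the lowest unadjusted p of the 8 S1P genes when DOX/IgG1 was compared with IgG1. DOX/IgG1 tumors held 39.2, 70.6 and 47.7 TPM (52.5 ± 16.2, SD, n = 3), and IgG1 tumors held 70.7, 106 and 68.9 TPM (81.8 ± 20.7). With anti-PD-1 the values were 119, 74.1 and 78.9 TPM alone (90.7 ± 24.8) and 81.0, 79.5 and 88.5 TPM beside DOX (83.0 ± 4.83). The DOX/IgG1 tumors were low against every other group, with 1 tumor that overlapped IgG1. The log2 fold change of -0.65 had a standard error of 0.27 and an adjusted p of 0.512 in limma. With a tumor left out it ran from -0.88 to -0.45, and it was -0.46 without DOX/IgG1 replicate 1. The exact permutation test gave p = 0.2 for this comparison. Of the 8 S1P genes, 0 passed both limits in this comparison, against 7 of all genes (0.0475%), a count that was 172 without DOX/IgG1 replicate 1, 1 without DOX/IgG1 replicate 3 and 4 without IgG1 replicate 3. At an unadjusted p below 0.05 there was 1 of 8, Spns2, against 8.86% of all genes. The tumors of both groups did not overlap in 0 of 8 S1P genes and in 13.4% of all genes.

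With the same DOX treatment, Spns2 was higher in each DOX/anti-PD-1 tumor than in each DOX/IgG1 tumor, by a log2 difference of 0.69 (standard error 0.27, limma adjusted p = 0.712). This difference ran from 0.51, without DOX/IgG1 replicate 1, to 0.93 with a tumor left out. The exact permutation test gave p = 0.1, the smallest that 3 tumors against 3 allow. This was 1 of 8 S1P genes without overlap, against 9.87% of all genes, and also 1 of 8 with an unadjusted p below 0.05, against 6.37%. The adjusted limits were passed by 0 of 8 S1P genes and by 2 of all genes (0.0136%), a count that was 25 without DOX/IgG1 replicate 1, 5 without DOX/anti-PD-1 replicate 3, 4 without DOX/anti-PD-1 replicate 1, and 1 without DOX/IgG1 replicate 3 or DOX/anti-PD-1 replicate 2. The share of S1P genes therefore stood close to that of all genes, where a single gene is 1 in 8. On 131 exonic bases Spns2 lies opposite Mybbp1a, which was at 61.4 to 122 TPM, and whether the quantification used strand is not given in the sources used here.

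Sgpp1, the phosphatase that returns S1P to sphingosine (ENSMUSG00000021054, chromosome 12, 75714249 to 75735729, minus strand), was the S1P gene that differed most when DOX was added to anti-PD-1. DOX/anti-PD-1 tumors held 77.9, 106 and 79.2 TPM (87.8 ± 16.1, SD, n = 3), against 113, 110 and 196 TPM under anti-PD-1 alone (140 ± 49.0). The values were 95.7, 116 and 112 TPM under IgG1 and 173, 100.3 and 119 TPM under DOX/IgG1. All DOX/anti-PD-1 tumors were below all anti-PD-1 tumors, with a gap of a few TPM between the nearest values, and overlapped both other groups. The log2 fold change was -0.62 (standard error 0.27, limma adjusted p = 0.678), and -0.35 without anti-PD-1 replicate 3, the tumor at 196 TPM. The exact permutation test gave p = 0.1, the smallest possible. Sgpp1 was the 1 of 8 S1P genes with an unadjusted p below 0.05, against 7.13% of all genes, and the 1 of 8 without overlap, against 14.3%. Both limits were passed by 0 of 8 S1P genes and 0 of 14735 genes (0%) in limma, where 1051 genes had an unadjusted p below 0.05.

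Whether DOX acted differently under each antibody was asked with the interaction of DOX and anti-PD-1. For Sgpp1 the log2 difference of the DOX effects was -0.87 (standard error 0.39), with an unadjusted p of 0.0430 and an adjusted p of 0.993 in limma. It was the 1 of 8 S1P genes with an unadjusted p below 0.05, against 4.71% of all genes, and 0 of 8 passed both limits, against 1 of all genes (0.00679%), a count that stayed at 1 without DOX/IgG1 replicate 1 or DOX/anti-PD-1 replicate 3 and was 0 without any other tumor. When the DOX groups were compared, the log2 fold change of Sgpp1 for anti-PD-1 over IgG1 was -0.55 (limma adjusted p = 0.798) and -0.32 without DOX/IgG1 replicate 1, with 1 DOX/anti-PD-1 tumor inside the DOX/IgG1 range.

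Sphk1, the kinase that growth factors and cytokines activate (ENSMUSG00000061878, chromosome 11, 116530925 to 116536674, plus strand), was the S1P gene with the largest difference between anti-PD-1 and IgG1 tumors. Under anti-PD-1 it stood at 6.42, 10.0 and 7.52 TPM (7.99 ± 1.85, SD, n = 3), and under IgG1 at 12.7, 9.21 and 25.1 TPM (15.7 ± 8.35). With DOX it had 20.9, 10.3 and 16.1 TPM beside IgG1 and 9.70, 10.9 and 18.1 TPM beside anti-PD-1. The anti-PD-1 tumors were the lowest group, and 1 of them exceeded the lowest IgG1 tumor. The log2 fold change was -0.80 (standard error 0.41, limma adjusted p = 1), and the exact permutation test gave p = 0.2. Without IgG1 replicate 3, the tumor at 25.1 TPM, the log2 fold change was -0.42, and without IgG1 replicate 2 it was -1.09. No S1P gene of the 8 had an unadjusted p below 0.05 in this comparison, where 442 of all genes did (3%), and 0 of 8 and 0 of 14735 genes (0%) passed both limits in limma. Groups without overlap were seen in 0 of 8 S1P genes and in 9.62% of all genes.

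Sphk2 and Sgpl1 overlapped between the groups of all 4 pairwise comparisons. Sphk2, the kinase found largely at the nucleus and mitochondria (ENSMUSG00000057342, chromosome 7, 45709467 to 45718002, minus strand), stood at 15.9, 15.9 and 12.5 TPM under IgG1 and at 13.5, 11.1 and 9.04 TPM under DOX/IgG1. Its highest values, 25.3 and 22.3 TPM, came from 1 tumor each of the anti-PD-1 and DOX/anti-PD-1 groups, whose other tumors lay between 5.75 and 9.77 TPM. On the opposite strand, 539 exonic bases of Sphk2 are shared with Dbp (0 to 39.9 TPM) and 373 with the ribosomal protein gene Rpl18 (240 to 441 TPM), so its level is uncertain if reads were counted without strand. Sgpl1 (ENSMUSG00000020097, chromosome 10, 61098642 to 61147703, minus strand) had group means between 158 ± 65.7 TPM in DOX/anti-PD-1 and 194 ± 27.2 TPM in anti-PD-1 tumors (SD, n = 3).

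As a description over the 12 tumors, without a test, Pearson's r of log2(TPM + 1) between pairs of the 8 genes ran from -0.65 (Sphk1 and Spns2) to 0.64 (S1pr2 and Sphk1). The genes most like each were taken from 11297 tested genes with a mean of at least 5 TPM, and over 12 tumors the best of so many candidates has a high r without any relation. Those most like S1pr1 were Caml (r = 0.92), Pde3b (0.89) and Armc7 (0.88), and those most like S1pr2 were Tab2 (0.88), Tctn1 (0.87) and Atp2c2 (0.85). For S1pr3 they were Spsb2 (0.92), Idh1 (0.89) and Aldh6a1 (0.89). For the kinases they were Xab2 (0.89), Slc45a3 (0.89) and Hectd2 (0.87) with Sphk1, and Vps37b (0.85), Sept9 (0.81) and Churc1 (0.80) with Sphk2. Sgpp1 was closest to Tmem147 (0.87), Sfr1 (0.87) and Caskin2 (0.83), and Sgpl1 to Pgrmc1 (0.92), Sorbs2 (0.91) and Adam10 (0.91). Spns2 was closest to Tm2d3 (0.92), 1700021F05Rik (0.89) and Jtb (0.88).

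Of 37 other genes of sphingolipid synthesis, breakdown and S1P carriage, 34 were tested and 0 passed the limits in any of the 6 comparisons. With DOX over both antibodies 18 were higher and 16 lower, at a median log2 fold change of 0.052 against 0.12 for all genes. The largest positive values were those of the lipid phosphate phosphatase Plpp1 (0.79, limma adjusted p = 0.259), the ceramide synthase Cers4 (0.75, adjusted p = 0.510) and Abcc1, a drug efflux pump that also exports S1P (0.69, adjusted p = 0.263). Plpp1 ranged from 12.9 to 24.4 TPM without and from 21.0 to 54.7 TPM with DOX. Abcc1 ranged from 13.5 to 22.7 TPM without and from 20.4 to 46.9 TPM with DOX, with its highest value in DOX/IgG1 replicate 1. The largest negative values were those of the S1P exporter of blood cells Mfsd2b (-0.60), the ceramidase Acer2 (-0.49) and the sphingomyelin synthase Sgms2 (-0.46). The ceramidase Acer1 was listed at 0 in every tumor. Without DOX/IgG1 replicate 1, 301 of all genes passed both limits for DOX over both antibodies. In limma they included Cers4 (log2 fold change 1.15, adjusted p = 0.0905) and Sptlc3 (1.16, adjusted p = 0.0726). Sptlc3 is a subunit of the enzyme that starts sphingolipid synthesis. For DOX/IgG1 against IgG1 without that tumor, Plpp1 passed in limma (1.53, adjusted p = 0.0376), where 172 of all genes did.

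All 24 listed genes for G proteins, arrestins and effectors of S1P receptors were tested, and 0 passed the limits in any comparison. The list also held Klf2 and Cd69, which are not G proteins, arrestins or effectors. With DOX over both antibodies 19 were higher and 5 lower, with a median of 0.24, and 63.3% of all genes were higher. Gnai1, an inhibitory G protein subunit to which S1P receptors couple, had the largest log2 fold change, 1.12 (standard error 0.32, limma adjusted p = 0.232). It was at 0.42 to 1.64 TPM in the 6 tumors without and at 1.76 to 8.15 TPM in the 6 tumors with DOX, without overlap, as for 0.719% of all genes and 0 of the 8 S1P genes. Without DOX/IgG1 replicate 1 it passed the limits (1.30, limma adjusted p = 0.0591), as did 301 of all genes. Without that tumor Gnai1 also passed for DOX/IgG1 against IgG1 (1.94, limma adjusted p = 0.0879), where 172 of all genes did. The arrestins Arrb2 (0.80, adjusted p = 0.403) and Arrb1 (0.79, adjusted p = 0.261), which shut off and internalize such receptors, came next with all 12 tumors in the limma fit. Plcb4, Pik3cg and Rock1 had the lowest values, -0.51, -0.17 and -0.012.

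**Figure D4:**
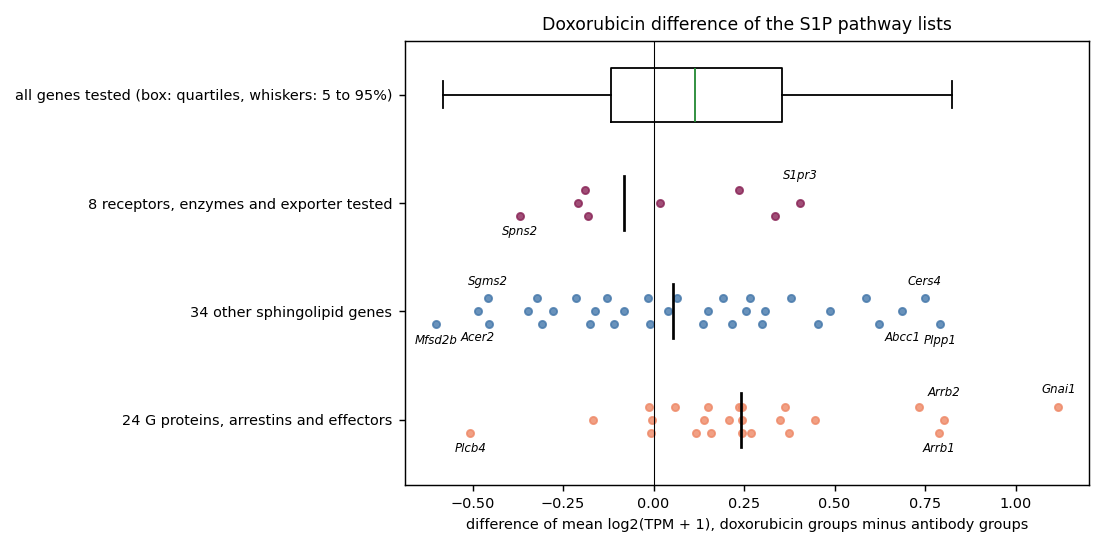
Log2 difference for DOX over both antibodies for each gene of the S1P pathway lists (points), the list medians (black bars) and all 14735 genes tested (box with quartiles, whiskers from 5% to 95%). The S1P genes stay between -0.37 and 0.41, and Gnai1 at 1.12 is the point farthest to the right.

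The receptors are used by different cell types, so the makeup of the tumors was read from marker lists. Mammary epithelial markers were present in every tumor, with Epcam at 418 to 954 TPM and a summed level of 2160 to 3726 TPM. With DOX over both antibodies 3 of 8 were higher and 5 lower, with a median of -0.11. Endothelial markers summed to 143 to 278 TPM, with Pecam1 as the most abundant (20.7 to 59.2 TPM). In the DOX effect 9 of 14 endothelial markers were higher, with a median of 0.10, beside 63.3% of all genes. By comparison, 5 of 14 were higher in DOX/IgG1 against IgG1 (median -0.11, all genes 60.5%). The count was 12 of 14 in DOX/anti-PD-1 against anti-PD-1 (0.38, 59.8%) and 2 of 14 in anti-PD-1 against IgG1 (-0.42, 47.1%). It was 10 of 14 in DOX/anti-PD-1 over DOX/IgG1 tumors (0.23, 46.3%). For the interaction 11 of 14 were higher (0.53, 49.4%), and 0 of 14 passed the limits. Whether Spns2 depends on endothelial content was not tested. In bulk tumors, fewer cells of a type and less RNA per cell cannot be told apart.

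Lymphocyte markers were low. T cell markers, led by Cd3e, summed to 26.8, 24.2 and 9.84 TPM in IgG1, 9.02, 21.7 and 10.3 TPM in anti-PD-1, 16.6, 62.6 and 49.5 TPM in DOX/IgG1, and 22.6, 29.1 and 39.3 TPM in the DOX/anti-PD-1 group. NK cell markers, led by Klrd1 (0 to 22.1 TPM), summed to 6.06 to 52.5 TPM. In IgG1 tumors the sum was 6.98 to 14.7 TPM, a range that held DOX/IgG1 replicate 1, while DOX/IgG1 replicates 2 and 3 had 52.5 and 46.6 TPM. B cell markers, led by Pax5, stayed at 0.20 to 3.78 TPM in sum, and 0 of 5 were tested. With DOX, 6 of 7 tested T cell markers (median 0.72) and 6 of 6 NK cell markers (median 0.58) were higher, and 0 of them passed the limits. Of all genes 63.3% were higher, at a median of 0.12. The NK cell median was 1.23 for DOX/IgG1 against IgG1 (6 of 6 higher, all genes 60.5%). It was 0.25 for DOX/anti-PD-1 against anti-PD-1 (5 of 6, all genes 59.8%) and -0.96 for DOX/anti-PD-1 against DOX/IgG1 (1 of 6, all genes 46.3%). The T cell median was 0.48, 0.97 and -0.30 in the same comparisons. The part of lymphocyte content in the receptor levels was not tested.

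Over all genes, 63.3% were higher with DOX, at a median log2 fold change of 0.12. Macrophage and neutrophil markers, led by C1qa (77.9 to 167 TPM), summed to 172 to 326 TPM. Of these markers 7 of 8 were higher with DOX at a median of 0.16, close to that of all genes. The neutrophil marker Ly6g was listed at 0 in every tumor. Fibroblast and mural cell markers, led by Col1a1, ranged from 386 TPM in DOX/IgG1 replicate 1 to 1735 TPM in DOX/IgG1 replicate 2, with 7 of 9 higher with DOX at a median of 0.67. Adipocyte markers, led by Adipoq (14.2 to 177 TPM), summed to 42.4 to 507 TPM, with 6 of 6 higher with DOX at a median of 0.92 (0.31 beside IgG1 and 1.43 beside anti-PD-1). Skeletal muscle markers, led by Acta1, summed to 853 TPM in DOX/anti-PD-1 replicate 1 and were listed at 0 in DOX/anti-PD-1 replicate 2, with 3 of 6 higher with DOX at a median of -0.0013. In the fibroblast list the anti-PD-1 sums (540 to 631 TPM) lay below those of both the IgG1 (813 to 1290 TPM) and the DOX/anti-PD-1 tumors (828 to 1298 TPM). They were also below IgG1 without overlap in the endothelial list (143 to 169.4 TPM and 169.7 to 271 TPM, nearly touching) and in the low B cell list, and below DOX/anti-PD-1 in the T cell list and the adipocyte list (48.5 to 77.2 TPM and 116 to 507 TPM). In anti-PD-1 against IgG1, 0 of 8 epithelial markers (median -0.25) and 0 of 6 adipocyte markers (-0.85) were higher, beside 47.1% of all genes. No marker of any list passed the limits in any comparison of all 12 tumors. Without DOX/IgG1 replicate 1, 301 of all genes passed the limits for DOX over both antibodies. They included the fibroblast and mural cell markers Dcn, Lum, Myh11 and Acta2, the T cell marker Cd3g and the epithelial marker Krt19. For DOX/IgG1 against IgG1 without that tumor, Dcn, Lum, Myh11 and Cd3g passed, where 172 of all genes did. The part of these cell types in the S1P gene levels was not tested.

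**Figure D5:**
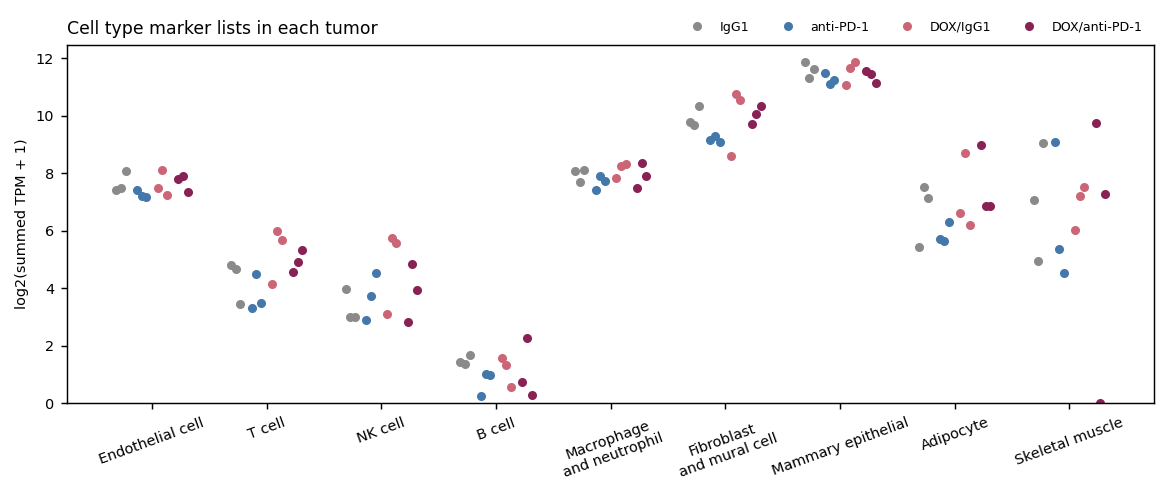
Summed TPM of each cell type marker list as log2(sum + 1) in each tumor, colored by treatment group. Epithelial markers lie highest. B cell markers lie lowest except in DOX/anti-PD-1 replicate 2, where the muscle list is at 0. The anti-PD-1 tumors lie below both the IgG1 and the DOX/anti-PD-1 tumors in the fibroblast list, and the muscle list spreads from 0 to 853 TPM.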

How the data were processed

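RNA of 12 whole PyMT tumors was sequenced from 1 end with 75 cycles after preparation with a stranded total RNA kit. Reads had been trimmed with skewer, mapped to mm10 with STAR and quantified per gene with RSEM by the authors, who deposited log2(TPM + 1) values with decimal commas; tool versions are not given in the sources used here. The log2 step was reversed, which gave TPM in steps of 0.01. The file header of DOX/IgG1 replicate 1 carries the added word "test". A few symbols had turned into dates and were read through their Ensembl identifiers. Gene positions and overlaps came from GENCODE vM21 and start regions from RefSeq.

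Groups came from the treatment labels. Genes at or above 1 TPM in 3 or more of the 12 tumors were fitted with limma 3.58.1 (R 4.3.3) on log2(TPM + 1), with 4 group means in one fit, empirical Bayes with a mean-variance trend, two-sided tests and Benjamini-Hochberg adjustment over all genes tested. Genes passed with an adjusted p below 0.1 and a log2 fold change beyond 1 in either direction. A log2 fold change is the difference between group means of log2(TPM + 1). Exact permutation tests of this difference were two-sided. The p-values treat the tumors as independent. The labels name no mouse for a tumor, so whether this holds is not known. Named genes were all 10 S1P genes, the 3 largest positive and negative values of each pathway list for DOX over both antibodies, any listed gene past the limits, the most abundant gene of each marker list, markers at 0 in every tumor, and the 3 genes most like each S1P gene. Dbp, Rpl18, Mybbp1a, Sptlc3, Plpp1 and the markers past the limits without one tumor were added after values were seen. The genes and lists were chosen with earlier results of these data known. Alternatives were another pseudocount, other filters, scaling by the median of ratios, the tumors in the fit, a replicate block, no trend, no fold limit and each tumor left out.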

Additional observations from a re-analysis of the deposited data

How the results depend on the processing

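None of the S1P genes passed the limits in any comparison under any alternative, the smallest adjusted p in limma being 0.311 (S1pr3, DOX over both antibodies, without DOX/IgG1 replicate 1). The counts over all genes moved. For DOX over both antibodies 13 genes became 6 with a pseudocount of 0.1. For DOX/IgG1 against IgG1 7 became 4 with that pseudocount, 13 without a filter and 3 with a mean of at least 5 TPM. For DOX/anti-PD-1 against anti-PD-1 0 became 1 without a filter or without a trend. For anti-PD-1 against IgG1 0 became 3 without a filter, 1 with median of ratios scaling and 2 without a trend. For DOX/anti-PD-1 against DOX/IgG1 2 became 1 with a pseudocount of 0.1, 4 without a filter, and 0 with a mean of at least 5 TPM or with only the 6 tumors of both groups. For the interaction 1 became 3 without a filter or a trend and 0 with a pseudocount of 0.1, a mean of at least 5 TPM, median of ratios scaling or the replicate block. The cause was not tested.

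With each tumor left out, these counts ran, in the same order, from 0 to 301, from 1 to 172, from 0 to 4, from 0 to 2, from 1 to 25 and from 0 to 1. A group then holds 1 tumor fewer, and the spread is shared by all groups. The log2 fold change of S1pr2 for DOX over both antibodies, 0.018, became -0.097 with median of ratios scaling and ran from -0.12 to 0.14 with a tumor left out, and that of Sphk2 from -0.45 to 0.066. The other log2 fold changes given for the S1P genes kept their sign in every alternative, but not their size.

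The labels give tumors with the same replicate number no link besides that number. The correlations of their deviations from the group means ran from -0.096 to 0.13 (median 0.017), against -0.19 to 0.11 (median -0.0045) between tumors of different groups and numbers, and 8 of 12 tumors correlated best with a tumor of their own number. There were 18 pairs of the same number and 36 of different numbers, and all these correlations were low. The count of best matches was not tested against chance, and whether the numbers mark a shared step is not known. With the replicate block, 9 and 8 genes passed for DOX over both antibodies and for DOX/IgG1 against IgG1, 2 for DOX/anti-PD-1 against DOX/IgG1, 0 for each other comparison and 0 S1P genes in each. The depth of the libraries is unknown, so no counting error can be given for S1pr4 and S1pr5.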
